A study of Mus musculus with 18 samples.

Results

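UN-SCC679 cells that carried the sh3 construct against the kinase gene Dstyk were compared with UN-SCC679 cells that carried an empty vector of another kind. UN-SCC679 is a mouse lung cancer line of strain A/J, labelled squamous carcinoma. The comparison was made of 6 of the 18 RNA-seq libraries of the series, chosen by their titles: 3 of sh3 in the TPLKO vector with doxycycline, and 3 of empty pLENTI6, for which no treatment is named. The control that matches sh3 in vector and drug, empty TPLKO with doxycycline (3 libraries), is given beside it. No further allele, agent, time or clone is stated for these groups, and all 3 are labelled as the same line. Inside the deposited tables, however, the names of the sh3 and empty TPLKO libraries carry the ending AJ2 after the number of the line, and those of empty pLENTI6 do not. Whether these are separate isolates or stocks of the line is not stated. Both arms of the pLENTI6 experiment are labelled as overexpression of DSTYK, so its empty vector is known from the titles and the library names inside the deposited table. The phenotype label is likewise the same in both arms of the TPLKO experiment. Between sh3 and empty pLENTI6, the hairpin, the vector, doxycycline, the deposited table that held the libraries and any difference in starting cells that the names stand for go together and cannot be told apart. The question, as far as the comparison sets one, concerned the differences of the sh3 cells from their own control. It was which of them remained against cells with another vector, for which no drug is named.

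DSTYK is a dual serine/threonine and tyrosine protein kinase. It has been tied to FGF receptor and ERK signalling and to cell death, and the series concerns lung cancer cells in which it was lowered or raised. Several of the pathways described here work through well known transcription programmes: NRF2 switches on genes that make and use glutathione when cells meet oxidants, ATF6 and XBP1 raise the chaperones of the endoplasmic reticulum when unfolded proteins build up there, and ERK drives a set of immediate-early genes and their feedback inhibitors within minutes of a growth factor signal.

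The 9 libraries held between 40525385 and 46371244 estimated counts, and 14774 genes passed the filter on low counts. Values are CPM, counts per 1e6 counts of the library, after TMM scaling. A gene is called at an adjusted p under 0.05 in edgeR's quasi-likelihood test with Benjamini-Hochberg adjustment over all genes tested. The common coefficient of variation within groups was 4.33%. Nothing says that the replicates were separate cultures, so the p-values reflect how far libraries of a group spread, which may be technical. In a principal component analysis, the first component (59.0% of the variance) put empty pLENTI6 on one side and both TPLKO-vector groups on the other. The second component (26.4%) separated sh3 from empty TPLKO. The first empty pLENTI6 library stood apart from the other two of its group, with a chi-square per gene of up to 13.9 where pairs within the other groups reached 5. The squamous label was met in part, and 7 of 12 squamous markers passed the filter. Trp63 had means of 13.5, 2.19 and 2.75 CPM in sh3, empty TPLKO and empty pLENTI6, and Sox2 34, 35.4 and 80.9 CPM. In the same order Krt14 had means of 14.1, 3.07 and 0.627 CPM, Krt6a 1.37, 0.453 and 61.6 CPM and Pkp1 175, 202 and 105 CPM. Krt5 had 2, 0 and 2 counts over the libraries of those groups, and Dsg3 had 0 in each group. Of 9 alveolar and club markers 4 passed. Nkx2-1 had means of 52.7, 56.1 and 36.6 CPM and Aqp5 343, 482 and 459 CPM, while Sftpc had 4, 2 and 1 counts. Of 11 epithelial markers 4 passed the filter. Krt8 had means of 283, 438 and 575 CPM, but Epcam had 1, 2 and 11 counts and Cdh1 42, 2 and 3 counts in those groups. Of 9 leukocyte markers 3 passed the filter, and the list summed to 10.9 to 12.3 CPM in sh3, 7.72 to 8.44 CPM in empty TPLKO and 18.3 to 20.1 CPM in empty pLENTI6. Most of that was Cd14, with 896, 675 and 1864 counts in those groups, beside Cd68 with 206, 207 and 508 and Csf1r with means of 2.58, 0.795 and 0.73 CPM, while the defining marker Ptprc had 6, 13 and 11 counts and Adgre1 was at 0. Of 7 endothelial markers 2 passed, and the list summed to at most 2.11 CPM in a sh3 library, 1.78 CPM in empty TPLKO and 0.695 CPM in empty pLENTI6. Pecam1 had 105, 130 and 64 counts and Vwf 112, 62 and 10, both called higher in sh3 than in empty pLENTI6, whereas Cdh5 had 1, 0 and 1 counts and Cldn5 was at 0. The call of Pecam1 was lost under some alternative settings, among them no filter on low counts (adjusted p = 0.0587, edgeR). The part of such cells in the results was not tested. These are bulk RNA values, in which fewer cells of a type and less RNA per cell cannot be told apart.

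Genes that share sequence with other genes differed between the deposited tables, and this bears on the comparison with empty pLENTI6. The share of each gene's 31-base words that occurs in no other gene was computed from GENCODE transcripts, 31 being kallisto's usual word length. Among the 532 tested genes with under 10% of such words, the median size of the log2 difference from empty pLENTI6 was 1.18, and 45.7% were called at least 2-fold. In the same genes the median size against empty TPLKO, which shares a table with sh3, was 0.376. For the 9736 genes with 95% or more words of their own, the medians were 0.324 and 0.27. As an example, the processed pseudogene Rps12l1 had 125942 counts in sh3, 100820 in empty TPLKO and 0 in empty pLENTI6. It was 1 of 22 genes with at least 1000 counts in both TPLKO-vector groups and none in either pLENTI6 group, and no gene showed the reverse. Where a result turns on such genes, the value with sequence-sharing families summed is given beside it. What makes the tables differ was not tested, and table and group cannot be told apart.

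**Figure D1:**
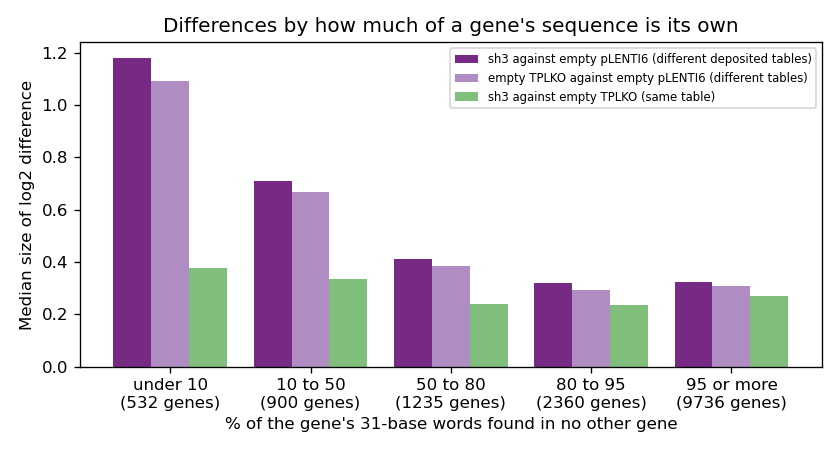
Median size of the log2 difference (vertical axis) for tested genes in 5 classes of unshared sequence (horizontal axis), for 3 comparisons. Bars of the 2 comparisons across tables rise from 0.324 and 0.307 in the class with the most unshared sequence to 1.18 and 1.09 in the class with the least, while the comparison within a table goes from 0.27 to 0.376.

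Dstyk was lowest in the sh3 libraries, at 26.7, 26.6 and 25.1 CPM. Empty pLENTI6 stood at 29.3, 30.99 and 32.3 CPM and empty TPLKO at 36.4, 36.3 and 38.05 CPM. No library of a group overlapped with another group. The sh3 cells had 1.18-fold less Dstyk than empty pLENTI6 (log2 -0.24, SE 0.0441; adjusted p = 3.47e-04, edgeR) and 1.41-fold less than empty TPLKO (log2 -0.50, SE 0.0435; adjusted p = 7.03e-07). The 2 controls themselves differed, with 1.20-fold more Dstyk in empty TPLKO (adjusted p = 1.72e-04), so the reduction was smaller against empty pLENTI6. Dstyk (ENSMUSG00000042046.15) lies at chr1:132417555-132466958 of GRCm38 on the plus strand, and the median gene of chromosome 1 was itself lower, at a log2 of -0.09 against empty pLENTI6. With the median of each chromosome removed the Dstyk difference was -0.15, still called.

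Most genes differed between sh3 and empty pLENTI6. Of 14774 genes, 10368 (70.2%) were called, 5061 higher and 5307 lower in sh3, and 2512 (17%) differed at least 2-fold, 1593 upwards (10.8%) and 919 downwards (6.22%). Libraries of sh3 and empty pLENTI6 were fully apart in 74% of genes. Against empty TPLKO 9008 genes (61%) were called, 30.4% higher and 30.6% lower, and 1555 (10.5%) differed at least 2-fold, and between the 2 empty controls 9948 (67.3%, of which 32.6% higher and 34.7% lower in empty TPLKO). Counts in gene lists are to be read against these shares.

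Of the 9008 genes called against empty TPLKO, 5384 were called the same way against empty pLENTI6 (2638 higher, 17.9%, and 2746 lower, 18.6%, together 36.4% of all genes tested), 1734 the opposite way and 1890 not at all. For comparison with the larger differences, 58.8% of all genes called higher than in empty TPLKO and 60.7% of those called lower were called the same way against empty pLENTI6. Of the 1188 genes at least 2-fold higher than in empty TPLKO (8.04% of those tested), 848 (71.4%) were higher than in empty pLENTI6 too, 690 of them at least 2-fold. Another 215 were not called and 125 were lower. Of the 367 at least 2-fold lower (2.48%), 256 (69.8%) were lower than in empty pLENTI6 and 199 at least 2-fold. Read from the other side, of 1593 genes at least 2-fold higher than in empty pLENTI6, 987 (62%) were higher than in empty TPLKO, and of 919 genes at least 2-fold lower than in empty pLENTI6, 348 (37.9%) were lower than in empty TPLKO. Both comparisons use the same 3 sh3 libraries, so a gene can be called the same way in both through those libraries alone.

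The genes with the largest rises against both controls were low in both control groups and well expressed in sh3. Ces1d, a carboxylesterase of lipid metabolism, stood at 136, 130.4 and 135 CPM in sh3, at 2.07, 1.93 and 2.83 CPM in empty TPLKO and at 1.17, 1.24 and 1.19 CPM in empty pLENTI6. Ces1f, an esterase of the same gene cluster, gave 36.4, 34.5 and 36.1 CPM in sh3 beside 1.81, 2.30 and 1.86 CPM in empty pLENTI6. Both esterases were thus far above each control, with log2 differences from empty pLENTI6 of 6.80 (SE 0.0794; adjusted p = 7.04e-15, edgeR) and 4.16 (SE 0.108; adjusted p = 5.78e-12). Scara5, a scavenger receptor that takes up ferritin, was at 66.6, 64.7 and 63.2 CPM in sh3, 0.506, 0.466 and 0.451 CPM in empty TPLKO and 1.51, 1.59 and 1.12 CPM in empty pLENTI6.

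Sulf2, a sulfatase that trims heparan sulfate at the cell surface, was higher in sh3 than in either control and far higher than in empty pLENTI6. It stood at 202, 197 and 202 CPM in sh3, 19.6, 20.2 and 20.1 CPM in empty TPLKO and 0.347, 0.598 and 0.573 CPM in empty pLENTI6, so that most of that rise (log2 8.61, against 3.32 from empty TPLKO) lay between the controls. The secreted pattern recognition protein Ptx3 was 10.2-fold above empty pLENTI6 and 61.4-fold above empty TPLKO, and the junction plaque protein periplakin, Ppl, 11.1-fold and 16.7-fold. Trim30a, an interferon-inducible TRIM protein, and Peli2, an E3 ligase of Toll-like receptor signalling, were also among the 10 genes with the largest rises against both. No sh3 library overlapped with a control library for any of these genes.

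**Figure D2:**
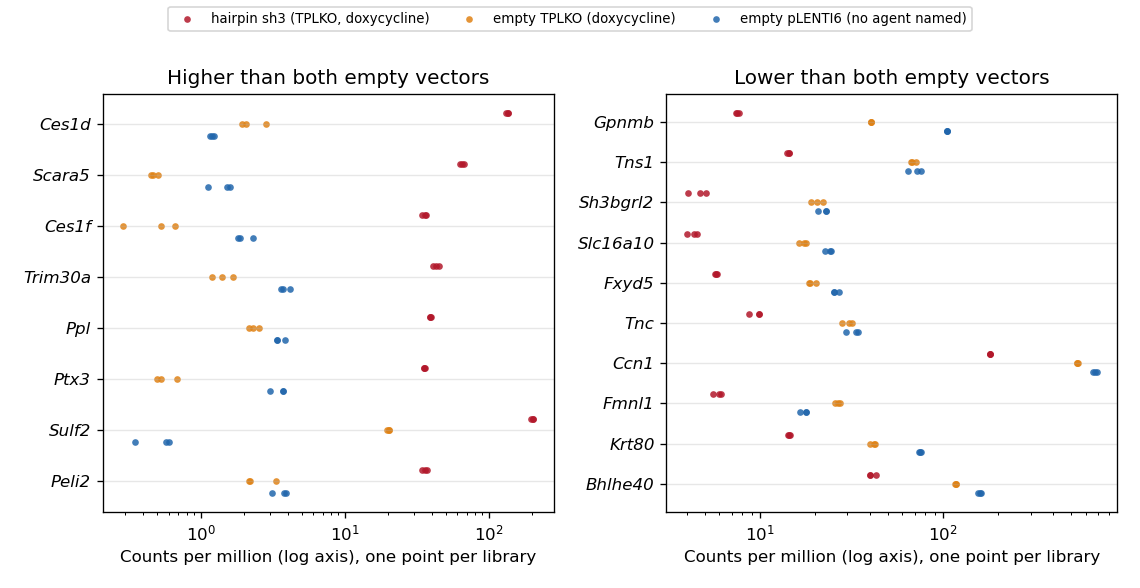
CPM (horizontal, log axis) of 8 of the 10 genes with the largest rises and of the 10 with the largest falls against both controls (vertical axis), with 1 point per library and 3 groups by colour. The sh3 points stand clear of both controls in every row, from 34.2 to 202 CPM among the rises drawn.

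Falls against both controls were smaller. Gpnmb, a transmembrane glycoprotein of lysosomes and melanosomes that MITF and TFE3 can switch on, led them, with 7.46, 7.67 and 7.43 CPM in sh3, 40.6, 40.6 and 40.6 CPM in empty TPLKO and 105, 105 and 105 CPM in empty pLENTI6. The 3 groups were widely apart and replicates nearly identical. The log2 differences from empty pLENTI6 and empty TPLKO were -3.80 (SE 0.0341) and -2.43 (SE 0.0358). Tns1, a focal adhesion protein that binds actin, was at 14.5, 14.3 and 14.1 CPM in sh3, 67.7, 66.99 and 70.7 CPM in empty TPLKO and 64.4, 71.9 and 75.6 CPM in empty pLENTI6. Here the 2 controls overlapped and the sh3 cells were 4.93-fold below empty pLENTI6. Ccn1, a matricellular protein and target of YAP, was at 179.9, 181 and 179.5 CPM in sh3, 537, 538 and 542 CPM in empty TPLKO and 689, 655 and 673 CPM in empty pLENTI6. Tnc, which encodes the matrix glycoprotein tenascin C, was 3.39-fold and 3.17-fold below empty pLENTI6 and empty TPLKO. The others were Sh3bgrl2, the aromatic amino acid transporter Slc16a10, Fxyd5 (dysadherin, a subunit of the sodium pump), the formin Fmnl1, the keratin Krt80 and the clock repressor Bhlhe40, at 2.96-fold to 5.53-fold below empty pLENTI6. Their adjusted p-values against empty pLENTI6 were at most 2.16e-10 (edgeR).

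Gene lists fell into those that kept their direction against both controls and those that turned. Lists were drawn up from textbook members with earlier results of these data known, so their lean is not independent evidence. With 34.3% of all genes called higher and 35.9% called lower than in empty pLENTI6, most lists hold calls in both directions.

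**Figure D3:**
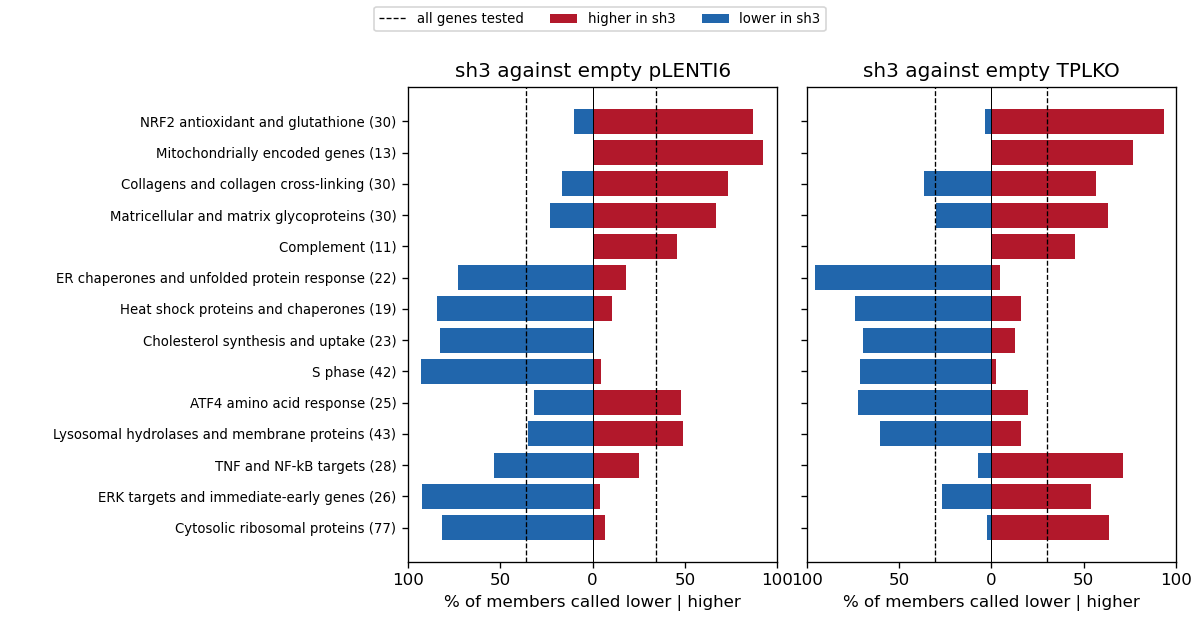
Share of tested members (horizontal axis, percent) called lower (left) and higher (right) in sh3 for 14 gene lists (vertical axis, number tested in brackets), against empty pLENTI6 in one panel and empty TPLKO in the other, with dashed lines at the shares over all genes tested. The upper 9 lists lean the same way in both panels, and the lowest 3 lean lower against empty pLENTI6 and higher against empty TPLKO.

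The NRF2 list of antioxidant and glutathione genes was the clearest of those that remained: 26 of 30 tested members were higher than in empty pLENTI6 (86.7%), 3 were lower, and the median log2 difference was 1.03, where the median of all genes was -0.00063. The same 26 were also higher than in empty TPLKO, where 28 of 30 were higher (30.4% of all genes tested) with a median of 0.77. Nqo1, a quinone reductase and standard readout of NRF2, was at 38.6, 36.8 and 36.3 CPM in sh3, 0.458, 0.665 and 0.401 CPM in empty TPLKO and 3.89, 3.85 and 4.13 CPM in empty pLENTI6. Ephx1, an epoxide hydrolase, was at 95.2, 90.8 and 93.5 CPM in sh3, 19.98, 19.2 and 19.4 CPM in empty TPLKO and 7.07, 6.15 and 6.01 CPM in empty pLENTI6. The 2 controls were in opposite order for these 2 genes and sh3 was above both. Among glutathione transferases, Gsta4 was at 429, 430.1 and 428 CPM in sh3, 114, 118 and 116 CPM in empty TPLKO and 56.1, 54.5 and 50.03 CPM in empty pLENTI6, and all its groups were apart. Gstm1 was at 554, 554 and 540.4 CPM in sh3, 122, 123 and 123 CPM in empty TPLKO and 155, 147 and 149.9 CPM in empty pLENTI6. Gstm2 was 18.1-fold above empty pLENTI6 (adjusted p = 8.02e-13, edgeR) and 7.53-fold above empty TPLKO.

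The enzymes that make glutathione rose less: Gclc, the catalytic subunit of glutamate-cysteine ligase, was 2.05-fold above empty pLENTI6 and 1.66-fold above empty TPLKO, and its modifier subunit Gclm 1.42-fold and 1.36-fold. The cystine importer Slc7a11 and the haem oxygenase Hmox1 differed chiefly from empty pLENTI6, 2.86-fold and 2.40-fold, against 1.10-fold and 1.17-fold from empty TPLKO. Exceptions were Tkt and Taldo1 of the pentose phosphate pathway and the transferase Gstp1, which were lower than in empty pLENTI6 at log2 -0.30, -0.43 and -0.39. Txn1 was not called (log2 -0.04, adjusted p = 0.314, edgeR). Restricted to the 17 members with at least 95% unshared sequence, 16 were higher than in empty pLENTI6.

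NRF2 acts through the antioxidant response element, searched here as TGACNNNGC on both strands in the RefSeq promoter windows of GRCm38.p6, from 250 bases before to 50 bases after each gene's start. A promoter was found for 26 of the 31 listed genes and 8 held the motif (30.8%), beside 12.4% of all 32851 promoters. The 4 stretches printed lie wholly before the start in genes called higher than both controls, run 5′ to 3′ along the gene's strand, and have the motif in capitals. In Gsta3 it reads along the gene's strand and in the others on the opposite strand, so it appears reversed and complemented.
Gsta3, plus strand, chr1:21240444-21240492: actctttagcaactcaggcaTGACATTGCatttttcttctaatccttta
Gclm, plus strand, chr3:122245403-122245451: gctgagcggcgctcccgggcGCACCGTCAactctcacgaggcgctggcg
Mgst1, plus strand, chr6:138140451-138140499: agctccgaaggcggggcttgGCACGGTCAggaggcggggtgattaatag
G6pdx, minus strand, chrX:74428909-74428957: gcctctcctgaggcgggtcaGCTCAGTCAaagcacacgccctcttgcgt
Against empty pLENTI6 these genes, which encode a glutathione transferase, the ligase subunit named above, a microsomal glutathione transferase and the first enzyme of the pentose phosphate pathway, were higher at log2 3.15, 0.50, 1.34 and 0.60. Against empty TPLKO they were higher at 3.01, 0.45, 0.58 and 0.81. Prdx1 also met the conditions for printing, at log2 0.29 from empty pLENTI6 and 0.14 from empty TPLKO, and is not printed. A match describes the letters of the window and not a site in use. The list was drawn up from textbook members, so its share of motifs is not independent evidence.

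Extracellular matrix genes were higher than in empty pLENTI6 for 20 of 30 matricellular and matrix glycoproteins (7 lower, median log2 1.06) and for 22 of 30 collagen and cross-linking genes (5 lower, median 0.98). Against empty TPLKO, 19 of the glycoproteins were higher and 9 lower (median 0.84), and 17 of the collagen genes were higher and 11 lower (median 0.17). In each list 15 members were higher than both. Postn, which encodes periostin, had 41457 counts over the 3 sh3 libraries and 2 over the 3 empty pLENTI6 libraries, a ratio of 20777 with an exact 95% counting interval of 5751 to 171566. Empty TPLKO also expressed it, at 31.4, 30.1 and 30.7 CPM beside 325, 322 and 318 CPM in sh3. Lox, the lysyl oxidase that cross-links collagen, had 3938 counts in sh3 and 1 in empty pLENTI6, a ratio of 3947 (interval 708 to 155944). Empty TPLKO had 28 counts of Lox, so that Postn was close to 0 in empty pLENTI6 and Lox was low in both controls. Both genes were called higher in sh3 than in each control. Counting intervals cover counting error only, since the reads carry no molecular identifiers.

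Type VI collagen and fibronectin differed from both controls. Col6a1 was at 572, 552 and 554 CPM in sh3, 27.7, 27.9 and 28.1 CPM in empty TPLKO and 97.1, 99.2 and 100.2 CPM in empty pLENTI6. Fn1, which encodes fibronectin, was at 1778, 1739 and 1704 CPM in sh3, 370.3, 385 and 396 CPM in empty TPLKO and 481, 579 and 604 CPM in empty pLENTI6. In both genes sh3 was highest and empty TPLKO lowest. The bone matrix protein Spp1 was 2.02-fold above empty pLENTI6 and 7.58-fold above empty TPLKO, and the proteoglycan biglycan, Bgn, 29.4-fold and 11.8-fold.

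Of the fibrillar and basement membrane collagens, Col1a1 was above both controls and several others lay between them. Col1a1 was at 1116, 1078 and 1048 CPM in sh3, 524, 515 and 530.2 CPM in empty TPLKO and 7.32, 7.04 and 7.68 CPM in empty pLENTI6, a log2 difference of 7.20 (SE 0.0418; adjusted p = 1.52e-17, edgeR) from empty pLENTI6 and of 1.05 from empty TPLKO. Its partner chain Col1a2 was 2.07-fold above empty pLENTI6 but 1.36-fold below empty TPLKO. Col4a1, Col4a2, Col5a1, Col5a2 and Col7a1 showed the same turn, with log2 differences of 0.66, 0.82, 1.67, 3.12 and 0.45 from empty pLENTI6 and of -0.57, -0.40, -0.95, -0.56 and -1.09 from empty TPLKO. The 10 fibroblast markers, which include Col1a1 and Col1a2, summed to 9846 to 10172 CPM in sh3, 12235 to 12604 CPM in empty TPLKO and 4233 to 4400 CPM in empty pLENTI6. Most of each sum was Col1a2, with means of 8549, 11632 and 4134 CPM in those groups. Of the others, the receptor Pdgfra was at 57.1, 57.4 and 54.4 CPM in sh3, 7.33, 6.56 and 6.71 CPM in empty TPLKO and 14.2, 17.6 and 19.4 CPM in empty pLENTI6, while Lum had 2, 0 and 1 counts and Dpt 6, 0 and 0 counts in those groups. Pdgfrb had means of 284, 256 and 145 CPM in the same order, Pdpn 10.6, 7.21 and 12.2 CPM and Thy1 0.637, 0.51 and 0.523 CPM. Dcn had 85, 17 and 13 counts and Fap 4, 6 and 4 counts. The part of other cell types in the matrix results was not tested.

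Chaperones of the endoplasmic reticulum were lower in sh3. Of 22 members, 16 were below empty pLENTI6 (72.7%, median log2 -0.20) and 4 above. Against empty TPLKO 21 were below and 1 above (median -0.49), and 15 were below both controls. Hspa5, the central chaperone BiP, was at 1691, 1682 and 1665 CPM in sh3, 3244, 3309 and 3325 CPM in empty TPLKO and 2284, 2215 and 2202 CPM in empty pLENTI6. Calr, the lectin chaperone calreticulin, was at 2029, 2035 and 2026 CPM in sh3, 3172, 3193 and 3189 CPM in empty TPLKO and 2618, 2530 and 2562 CPM in empty pLENTI6. For both, empty pLENTI6 lay between the other groups with no overlap. Creld2, Sdf2l1 and Manf, secreted or resident proteins raised in ER stress, were below empty pLENTI6 at log2 -0.83, -0.83 and -0.76 and below empty TPLKO at -0.81, -0.68 and -0.80. P4hb, Edem1, Herpud1 and Sel1l were above empty pLENTI6 (log2 0.27, 0.12, 0.15 and 0.24) and below empty TPLKO. The last 3 act in the disposal of misfolded proteins.

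ATF6 and the factor NF-Y bind the ER stress response element, searched here on both strands as CCAAT and CCACG with 9 bases of any kind between them. Of the 22 listed genes 19 had a RefSeq promoter and 8 of these held it (42.1%), beside 39 of all 32851 promoters (0.119%). The list was drawn up from textbook members of this response, so its share is not independent evidence. Here too a match describes letters and not a site in use. The stretches printed are of 5 genes that were lower than both controls, and of Syvn1, the ubiquitin ligase that was lower than empty pLENTI6 (log2 -0.39) but higher than empty TPLKO (0.14). Capitals mark the motif, which reads on the opposite strand in Calr and Creld2. Hsp90b1, the chaperone GRP94, has it once on each strand, and its longer stretch spans both. No printed stretch holds the motif of the other list.
Hspa5, plus strand, chr2:34772005-34772063: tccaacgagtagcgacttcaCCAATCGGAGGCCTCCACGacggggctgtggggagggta
Calr, minus strand, chr8:84847055-84847113: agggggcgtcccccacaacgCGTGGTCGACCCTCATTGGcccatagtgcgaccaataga
Hsp90b1, minus strand, chr10:86705513-86705676: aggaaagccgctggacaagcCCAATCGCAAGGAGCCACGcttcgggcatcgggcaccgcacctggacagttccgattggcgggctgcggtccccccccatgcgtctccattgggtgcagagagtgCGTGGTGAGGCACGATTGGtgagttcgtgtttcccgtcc
Creld2, plus strand, chr15:88819500-88819558: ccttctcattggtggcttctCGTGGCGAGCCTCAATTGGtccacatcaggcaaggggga
Pdia6, plus strand, chr12:17266471-17266529: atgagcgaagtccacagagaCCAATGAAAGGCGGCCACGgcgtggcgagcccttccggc
Syvn1, plus strand, chr19:6046512-6046570: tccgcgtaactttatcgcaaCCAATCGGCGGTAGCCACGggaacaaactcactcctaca
The log2 differences of Hsp90b1 and of the disulfide isomerase Pdia6 from empty pLENTI6 were -0.23 and -0.47, and from empty TPLKO -0.49 and -0.38. Canx and Dnajc3 also held the motif before the start and are not printed. Their log2 differences were -0.09 and -0.11 from empty pLENTI6 and -0.49 and -0.65 from empty TPLKO.

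Genes of DNA replication were lower against both controls. Of 42 S phase genes, 39 were below empty pLENTI6 (92.9%, median log2 -0.45), 2 above and 1 not called. Against empty TPLKO 30 were below and 1 above (median -0.23), and 28 were below both. The 2 above empty pLENTI6, Ccne2 and Gins2, took a negative log2 difference with limma on log2(TPM + 1), at -0.0839 (adjusted p = 0.156) and -0.299 (adjusted p = 1.71e-04). Gins2 has 33.8% unshared words. With its family summed it stayed above empty pLENTI6, at log2 0.814 (adjusted p = 1.38e-14, edgeR), and was above empty TPLKO at 0.329 (adjusted p = 1.11e-08, edgeR). Cdt1, which licenses replication origins, was at 52.2, 52.4 and 46.6 CPM in sh3, 71.4, 67.1 and 74.5 CPM in empty TPLKO and 113, 99.99 and 107 CPM in empty pLENTI6. Its partner in licensing, Cdc6, was 1.90-fold and 1.47-fold below empty pLENTI6 and empty TPLKO, and the ribonucleotide reductase subunit Rrm2 1.73-fold and 1.47-fold. The MCM helicase genes Mcm2 to Mcm7 were each below both controls, against empty pLENTI6 from log2 -0.41 (Mcm5) to -0.78 (Mcm3). Of 42 G2 and M phase genes, 13 were above and 19 below empty pLENTI6, with a median of -0.02, and 10 were above and 24 below empty TPLKO, with a median of -0.10. Mki67, the proliferation marker, differed at log2 -0.20 (adjusted p = 0.021, edgeR), with libraries of sh3 and empty pLENTI6 overlapping.

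Cholesterol synthesis genes and heat shock proteins were also lower. Of 23 cholesterol genes, 19 were below empty pLENTI6 and 0 above (median log2 -0.60). Against empty TPLKO 16 were below and 3 above (median -0.24), and 14 were below both. Fdps, which makes farnesyl diphosphate in this pathway, was at 179.9, 175 and 179 CPM in sh3, 272, 277 and 279.7 CPM in empty TPLKO and 344, 328 and 320 CPM in empty pLENTI6. The 3 groups did not overlap and sh3 was lowest, 1.86-fold below empty pLENTI6 (adjusted p = 5.33e-11, edgeR) and 1.55-fold below empty TPLKO. Of 19 heat shock and chaperone genes 16 were below empty pLENTI6 (median -0.43), 14 below empty TPLKO (median -0.31) and 13 below both. The list includes Hspd1 and Hspe1, whose products HSP60 and HSP10 work in mitochondria. Without them 14 of 17 were below empty pLENTI6 and 11 below both. Hsph1, an HSP110 family chaperone, was 1.55-fold below empty pLENTI6 and 1.56-fold below empty TPLKO. The small heat shock protein Cryab was the clearest exception, 10.2-fold above empty pLENTI6 and 1.36-fold below empty TPLKO.

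Mitochondrially encoded genes were higher: 12 of 13 were above empty pLENTI6 (median log2 0.72) and 10 above empty TPLKO (median 0.37), all 10 above both. These genes have near copies in the nuclear genome. With families summed the median was 0.62, and mt-Nd1, a complex I subunit with no shared words, was at 2950, 2946 and 2887 CPM in sh3, 2358, 2380 and 2437 CPM in empty TPLKO and 2170, 2326 and 2331 CPM in empty pLENTI6. Of 80 nuclear genes of oxidative phosphorylation, 56 were below and 10 above empty pLENTI6 (median -0.21), but 29 were below and 20 above empty TPLKO (median -0.05), where 30.6% of all genes were lower. Of 78 mitochondrial ribosomal protein genes 61 were below and 4 above empty pLENTI6 (median -0.30), and 38 below and 11 above empty TPLKO (median -0.11). Of 11 complement genes 5 were above both controls and none below either. C3, the central complement protein, had a mean of 24.1 ± 1.78 CPM in sh3, 0.0720 ± 0.0262 CPM in empty TPLKO and 0.108 ± 0.0258 CPM in empty pLENTI6 (SD, n = 3). The inhibitor Clu was 3.15-fold above empty pLENTI6 and 1.74-fold above empty TPLKO. The protease genes C1s1 and C1ra were 3.21-fold and 1.54-fold above empty pLENTI6 and 11.03-fold and 3.54-fold above empty TPLKO.

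The ERK targets and immediate-early genes turned with the control. Of 26 members, 24 were below empty pLENTI6 (92.3%, median log2 -1.24), whereas 14 were above and 7 below empty TPLKO (median 0.42). Between the controls, 25 of 26 were lower in empty TPLKO (median -1.40), and 12 members were called in opposite directions. Among the 21 members with at least 95% unshared sequence, 19 were below empty pLENTI6 (median -1.30), and 10 were above and 6 below empty TPLKO, where the median was 0.08. Egr1, an immediate-early transcription factor, was at 65.3, 64.5 and 65.5 CPM in sh3, 8.05, 6.30 and 7.13 CPM in empty TPLKO and 159, 159 and 161 CPM in empty pLENTI6. Dusp6, a phosphatase that switches ERK off and a standard readout of its activity, was at 108, 106 and 107 CPM in sh3, 46.7, 44.1 and 42.9 CPM in empty TPLKO and 182, 180.4 and 184 CPM in empty pLENTI6. For both, sh3 lay between the controls and no groups overlapped. Egr3, Etv1 and Fosl1 kept that order, at log2 -1.49, -0.42 and -1.75 from empty pLENTI6 and 2.21, 2.10 and 0.50 from empty TPLKO.

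**Figure D4:**
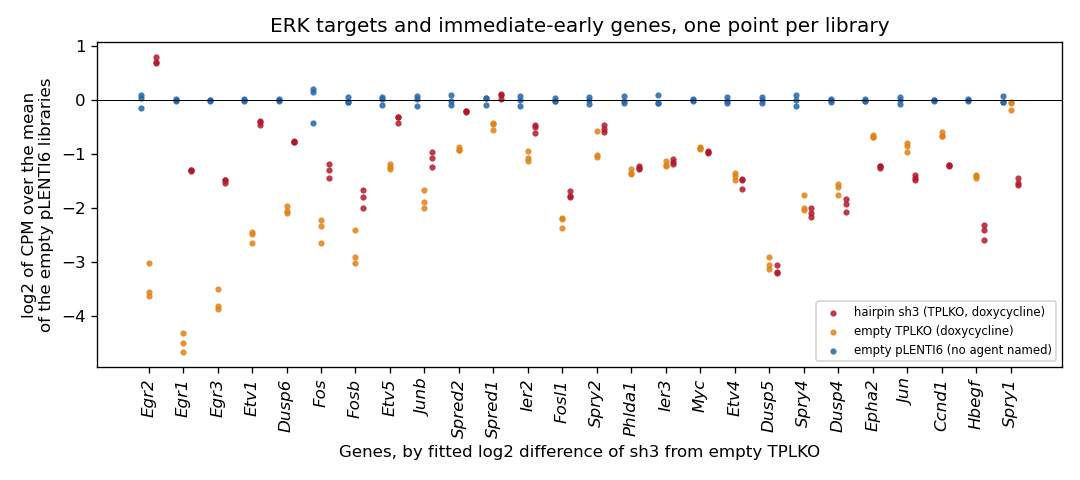
Log2 of the CPM of each library over the mean of the empty pLENTI6 libraries (vertical axis) for the 26 ERK targets and immediate-early genes (horizontal axis, ordered by the difference of sh3 from empty TPLKO), with 1 point per library and 3 groups by colour. Empty TPLKO points lie lowest for Egr1, near log2 -4.49 against empty pLENTI6, and sh3 points lie below both controls for Spry1, Hbegf, Ccnd1 and Jun.

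Of the ERK list, 7 members were lower than both controls: Ccnd1, Dusp4, Epha2, Hbegf, Jun, Myc and Spry1. The G1 cyclin Ccnd1 was at 386, 392 and 392 CPM in sh3, 596, 568 and 572 CPM in empty TPLKO and 906, 897 and 902 CPM in empty pLENTI6. Spry1, a feedback inhibitor of receptor tyrosine kinases, was at 8.20, 8.74 and 7.99 CPM in sh3, 20.9, 23.1 and 22.8 CPM in empty TPLKO and 23.1, 23.1 and 25.1 CPM in empty pLENTI6. The growth factor Hbegf was 5.38-fold below empty pLENTI6 and 2.03-fold below empty TPLKO. Egr2, an immediate-early factor, was the member above both, at log2 0.73 and 4.07. Dusp5, a nuclear ERK phosphatase, was 8.84-fold below empty pLENTI6 (adjusted p = 2.26e-13, edgeR) and was not called against empty TPLKO (adjusted p = 0.143). The CArG box is the site of serum response factor, which drives many immediate-early genes. Of the 15 promoters found for this list, 1 held it (6.67%), beside 1.63% of all promoters. That promoter, of Dusp5, has a pair of them side by side, shown in capitals.
Dusp5, plus strand, chr19:53529043-53529102: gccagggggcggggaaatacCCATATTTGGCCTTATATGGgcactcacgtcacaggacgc

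TNF and NF-kB targets turned in part. Of 28, 15 were below empty pLENTI6 (53.6%, beside 35.9% of all genes) and 7 above (median log2 -0.23). Against empty TPLKO 20 were above and 2 below (median 0.40). In all, 10 members were called in opposite directions and 7 were above both controls. Nfkb2 and Relb of the non-canonical pathway were below empty pLENTI6 at log2 -1.12 and -0.83 and above empty TPLKO at 0.26 and 0.45. Chemokines that attract neutrophils were above both controls. Cxcl5 was at 57.2, 58.5 and 65.2 CPM in sh3, 13.4, 12.1 and 12.1 CPM in empty TPLKO and 2.41, 2.68 and 2.73 CPM in empty pLENTI6. Cxcl1 and Cxcl2 were 3.25-fold and 5.33-fold above empty pLENTI6 and 2.88-fold and 2.97-fold above empty TPLKO.

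Cytosolic ribosomal protein genes turned as well. Of 77, 63 were below empty pLENTI6 and 5 above (median log2 -0.40), and 49 were above and 2 below empty TPLKO (median 0.14). These genes have many processed pseudogenes. With families summed the median was -0.18 against empty pLENTI6 and 0.17 against empty TPLKO, with 53 lower and 9 higher in the first comparison and 62 higher in the second. Rps3a1, which encodes a protein of the small subunit, was at 40.1, 49.8 and 43.7 CPM in sh3, 41.5, 38.5 and 43.2 CPM in empty TPLKO and 358, 346 and 306 CPM in empty pLENTI6. Its log2 difference of -2.92 from empty pLENTI6 became 0.06 when its family was summed, and was no longer called (adjusted p = 0.0578, edgeR). Rpl21, Nutf2, Krt6a, Hmga1 and Gemin4, also among the largest falls named for empty pLENTI6, have between 9.5% and 85.4% unshared words. With families summed, the log2 difference of Rpl21 went from -4.12 to -0.42, that of Nutf2 from -4.40 to -0.25 and that of Gemin4 from -2.89 to -0.29, while Krt6a stayed at -5.49 and Hmga1 at -2.21.

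ATF4 targets and lysosomal genes were lower than in empty TPLKO without being lower than in empty pLENTI6 on the median. Of 25 genes of the ATF4 amino acid response, 18 were below empty TPLKO (median log2 -0.49), but 12 were above and 8 below empty pLENTI6 (median 0.07). Trib3, a pseudokinase induced by ATF4, was at 47.7, 48.6 and 48.3 CPM in sh3, 79.9, 80.8 and 81.5 CPM in empty TPLKO and 18.7, 16.3 and 17.98 CPM in empty pLENTI6. Of 43 lysosomal genes 26 were below empty TPLKO (median -0.25), while 21 were above and 15 below empty pLENTI6 (median 0.09). Lamp1, a lysosomal membrane protein, was 1.66-fold below empty TPLKO and 1.07-fold below empty pLENTI6. The V-ATPase subunit gene Atp6v1b2 was 1.41-fold below empty TPLKO and 1.40-fold above empty pLENTI6.

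Single genes with a large difference from empty TPLKO were also found at the level of empty pLENTI6. Blnk, an adaptor of B cell receptor signalling, was at 21.9, 21.5 and 20.4 CPM in sh3, 4.77, 5.37 and 4.51 CPM in empty TPLKO and 22.4, 23.1 and 21.2 CPM in empty pLENTI6. Dlg4, the scaffold PSD-95, was at 43.4, 43.8 and 45.7 CPM in sh3, 14.3, 12.97 and 12.3 CPM in empty TPLKO and 43.9, 42.9 and 42.5 CPM in empty pLENTI6. Ndnf, a secreted neurotrophic factor, was at 16.2, 15.7 and 17.6 CPM in sh3, 76.2, 74.9 and 77.03 CPM in empty TPLKO and 16.2, 15.2 and 16.97 CPM in empty pLENTI6. In these genes it was empty TPLKO that stood apart, and the sh3 and empty pLENTI6 libraries overlapped in all 3. The log2 differences of sh3 from empty pLENTI6 were -0.07 (SE 0.0577), 0.04 (SE 0.0433) and 0.03 (SE 0.0527), none called. Some genes turned outright: Crhr1, a receptor for corticotropin-releasing hormone, was 12.6-fold above empty TPLKO and 1.97-fold below empty pLENTI6. Thbs1, which encodes the matrix protein thrombospondin 1, was at 3940, 3917 and 4014 CPM in sh3, 9668, 9814 and 9938 CPM in empty TPLKO and 1928, 2143 and 2237 CPM in empty pLENTI6. It was thus lower than one control and higher than the other without overlap.

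The reverse was also seen, genes that separated both TPLKO-vector groups from empty pLENTI6. Slco2a1, a prostaglandin transporter, was at 20.1, 19.02 and 18.7 CPM in sh3, 17.6, 19.9 and 18.4 CPM in empty TPLKO and 2.48, 3.28 and 3.07 CPM in empty pLENTI6. Kif26b, a kinesin family member, was 3.53-fold above empty pLENTI6 and not called against empty TPLKO (adjusted p = 0.486, edgeR). Krt7, a simple epithelial keratin, was at 3.25, 4.23 and 3.50 CPM in sh3, 1.47, 1.66 and 1.80 CPM in empty TPLKO and 115, 109.5 and 109 CPM in empty pLENTI6. Krt8 and Krt18, the partner keratins of simple epithelia, were 2.03-fold and 4.15-fold below empty pLENTI6 and 1.54-fold and 1.74-fold below empty TPLKO.

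Whole chromosomes were shifted in one of the controls. In empty TPLKO the median gene of chromosome 17 stood at a log2 of -0.34 and that of chromosome 19 at -0.38 relative to empty pLENTI6, in all 3 libraries alike. In sh3 the same medians relative to empty pLENTI6 were -0.06 and -0.09. Against empty TPLKO, 52.6% of chromosome 17 genes and 62.3% of chromosome 19 genes were called higher in sh3 (30.4% of all genes), with medians of 0.25 and 0.28. Chromosome 8 was shifted the other way in empty TPLKO, by 0.15. The sh3 cells had shifts of their own relative to empty pLENTI6, with medians of 0.14 for chromosome 2 and 0.11 for chromosome 16. Chromosome 5 stood at -0.17, which empty TPLKO shared (-0.15). With the median of each chromosome removed, 5303 genes were called the same way against both controls and 1545 the opposite way, where the uncorrected counts were 5384 and 1734. Why these chromosomes differ was not tested.

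**Figure D5:**
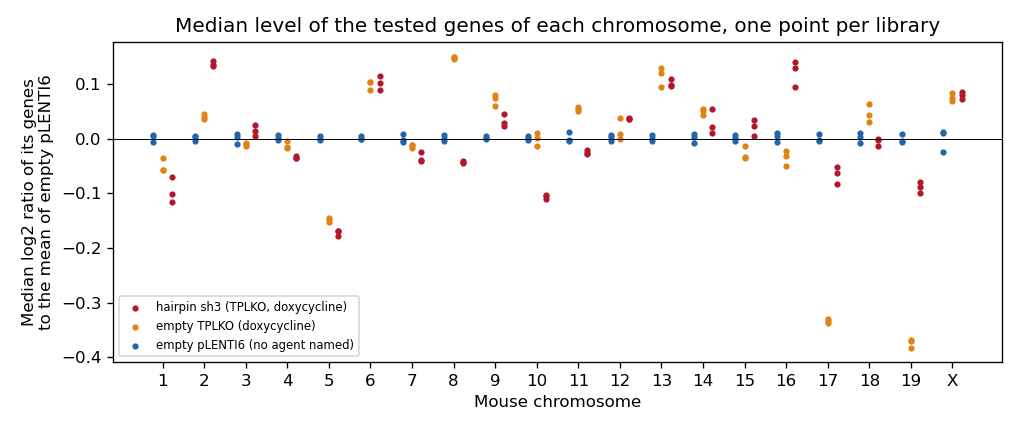
Median over the tested genes of each mouse chromosome (horizontal axis) of the log2 ratio to the mean of the empty pLENTI6 libraries (vertical axis), with 1 point per library and 3 groups by colour. The 3 empty TPLKO libraries lie near -0.34 on chromosome 17 and -0.38 on chromosome 19, while the sh3 libraries stay within 0.1 of zero there.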

How the data were processed

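RNA-seq of UN-SCC679 cells was used in 9 libraries of the series' 18: 3 of sh3, 3 of empty TPLKO and 3 of empty pLENTI6, grouped by their titles. The deposited tables give kallisto estimated counts and effective lengths per transcript, with sleuth and the mm10 build named, per the submitters' processing notes. Versions, index and annotation are not given in the sources used here. Libraries were TruSeq stranded mRNA, per the labels' protocols, which name both single-end and paired-end reads. The TPLKO-vector and pLENTI6 libraries stand in separate deposited tables, so every comparison with empty pLENTI6 is made across tables.

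Estimated counts were summed per gene with GENCODE M21 and rounded. Of 118489 transcripts 116816 matched, and the 1673 without a match held 0.515% to 0.538% of the counts. Genes were filtered with filterByExpr (minimum count 10, total 15), scaled by TMM and tested with edgeR 4.0.16 (quasi-likelihood test, R 4.3.3) in 1 fit of the 9 libraries with Benjamini-Hochberg adjustment over all genes tested. The fit was also run on simulated counts with changes set in a small part of the genes and no difference between tables. These data differ in both respects, so that run does not test the calls reported here. The contrast of the 2 empty vectors is also the test of the difference between the 2 sh3 comparisons. The alternatives were other scalings and filters, DESeq2 1.42.0, limma 3.58.1 on log2(TPM + 1) with TPM computed from the deposited effective lengths (eff_len, a length and not an expression value), other sets of libraries, chromosome medians removed, a replicate block and each library left out. Summing families that share at least 50% of their 31-base words, and keeping only genes with at least 95% unshared words, were chosen after seeing the data.

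The members and gene lists were chosen with earlier results of these data known. Genes were named by rule: Dstyk; among called genes whose log2 CPM averaged 3 or more, without clone names or overlap, the 10 largest rises and falls against empty pLENTI6 and against both controls; the 5 largest each way of those that turned, were not called against empty pLENTI6 or were called against it alone; and list members with the smallest adjusted p or whose role is described. Not every gene the rule names is described, and some are not reported here. Promoters are from RefSeq.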

Additional observations from a re-analysis of the deposited data

How the results depend on the processing

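The counts of called genes kept within 1.5 times of the reported value under the alternatives run, except the 2512 genes called at least 2-fold against empty pLENTI6, which were 1304 with limma on log2(TPM + 1), where the pseudocount shrinks low genes, and 1485 when only the 9740 genes with unshared sequence were tested. That last count comes from fewer genes. In the reported fit 15% of genes with at least 95% unshared words were called at least 2-fold, beside 17% of all genes tested. Leaving out each library in turn gave 9900 to 10520 genes called against empty pLENTI6, 2540 to 2675 at least 2-fold, 8399 to 9400 against empty TPLKO, 9386 to 9986 between the empty vectors and 4981 to 5535 called the same way against both, with Dstyk at -0.26 to -0.21. Deviations of same-numbered sh3 and empty pLENTI6 libraries from their group means had r = -0.0249, 0.0258 and -0.0042. For sh3 and empty TPLKO, r was 0.0211, 0.0565 and 0.047 for the same number and -0.0426 to -0.0067 for different numbers. Values this small cannot tell whether the numbers mark a shared culture or day. With a replicate block, the counts were 10268, 2487, 8894, 9839 and 5312, and Dstyk was -0.24. Of 3517 values of 170 single genes under alternatives, 3485 kept direction and side of the threshold, 23 lost the call, 5 gained it and 4 reversed: Atp5l to 0.22 and Rps3a1 to 0.0642 with families summed, and Ccne2 to -0.0839 and Gins2 to -0.30 with limma on TPM. Why was not tested. Medians of 28 of 33 gene lists kept their sign throughout, the exceptions being autophagy, G2 and M phase, epithelial markers, glycolysis and hypoxia, and the BCL2 family. With 3 libraries a group, low genes such as Gsta3 rest on few counts.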

Other observations

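Targets of p53 were mostly higher than in empty pLENTI6, 15 of 22 with 5 lower (median log2 0.31). Against empty TPLKO 12 were higher and 6 lower (median 0.10), and 10 were higher than both controls. Cdkn1a, the cell cycle inhibitor p21, was at 15.2, 15.97 and 15.2 CPM in sh3, 5.52, 5.61 and 4.51 CPM in empty TPLKO and 2.58, 2.72 and 2.45 CPM in empty pLENTI6. Btg2, an antiproliferative factor, and Trp53inp1, a p53 cofactor, were 5.97-fold and 6.54-fold above empty pLENTI6 and 4.14-fold and 3.42-fold above empty TPLKO. Pmaip1, which encodes the death-promoting protein NOXA, went the other way, at 25.4, 26.6 and 25.6 CPM in sh3, 102, 97.5 and 96.1 CPM in empty TPLKO and 64.2, 65.2 and 63.1 CPM in empty pLENTI6. The death receptor Fas was at 11.4, 11.9 and 11.3 CPM in sh3, 1.01, 0.821 and 1.23 CPM in empty TPLKO and 0.719, 0.686 and 0.459 CPM in empty pLENTI6, with no overlap of sh3 and either control.

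Of 19 genes through which T and NK cells recognise or kill targets, 13 were above and 4 below empty pLENTI6 (median log2 0.36). Against empty TPLKO 9 were above and 5 below with a median of -0.03, and 8 were above both. H60b, a ligand of the activating receptor NKG2D, was 3.26-fold above empty pLENTI6 and 2.54-fold above empty TPLKO, and Lgals9, galectin 9, 3.02-fold and 2.04-fold. Serpinb9, an inhibitor of granzyme B, turned, at 75.8, 76.5 and 75.1 CPM in sh3, 122, 121 and 124 CPM in empty TPLKO and 33.7, 37.6 and 33.8 CPM in empty pLENTI6. Of 38 interferon response genes 23 were above empty pLENTI6 and 7 below (median 0.27). Against empty TPLKO 16 were above and 14 below (median 0.07), and 14 were above both and 4 below both. Trim30d had 2858 counts in sh3 and 0 in empty TPLKO, at least 936-fold higher when 3 counts over the group are taken as the floor. Empty pLENTI6 had more than 3 counts of Trim30d, so that ratio holds against empty TPLKO alone. Among FGF receptors, Fgfr1 was at 84.6, 82.7 and 77.5 CPM in sh3, 96.6, 100 and 106 CPM in empty TPLKO and 241, 239 and 246 CPM in empty pLENTI6, while Fgfr2 and Fgfr3 were 2.55-fold and 2.95-fold above empty pLENTI6 and 1.26-fold and 1.98-fold above empty TPLKO.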
